A study of Sorghum bicolor with 15 samples.

Results

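Roots of the sorghum varieties Shanqui Red (SQR) and SRN39 were compared in plants harvested at 35 d of age. The comparison held 7 of the 15 labelled libraries of the study, 3 from SQR and 4 from SRN39, and the other 8 libraries, 4 per genotype, came from roots at 28 d. Each library was made from the whole root of the untransformed variety named, with no treatment that differed between the groups. All plants were started in sterile soil plugs, moved to sand-filled cones in randomized order in one greenhouse and fed a nutrient solution low in phosphate. The genotypes are different varieties, so every genetic difference between them enters each comparison, and SRN39 carries the deletion that removes LGS1 (LOW GERMINATION STIMULANT 1) together with neighbouring genes on chromosome 5. All reads were counted on the reference genome of another line, BTx623. The labels number the libraries as replicates without naming the plants behind them. P-values therefore measure the spread between libraries, pooled over all 15 libraries of both ages.

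Strigolactones are hormones made from carotenoids, mainly in roots, and plants release more of them when phosphate is short. In the soil they attract arbuscular mycorrhizal fungi and also trigger the germination of the parasitic weed Striga. LGS1, a sulfotransferase-like enzyme, decides which strigolactone sorghum roots exude, and loss of it makes Striga seeds germinate poorly. SQR is used as the Striga-susceptible variety and SRN39 as the resistant one.

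Of 34129 genes in the count table, 17701 had more than 1 CPM (read counts scaled to a common library total) in at least 3 of the 7 libraries and were tested. At 35 d 6436 of them (36.4%) differed between the genotypes at an adjusted p under 0.05 (quasi-likelihood test in edgeR, adjusted after Benjamini and Hochberg, as for every adjusted p given), with 2922 (16.5%) higher and 3514 (19.9%) lower in SRN39 than in SQR. The balance of the directions turned with limma-voom after quantile scaling, which called 3395 higher and 3290 lower. In edgeR, more genes stayed lower with RLE size factors (2998 higher, 3415 lower) or plain library totals (2655 and 3332). DESeq2 called 3189 higher and 3528 lower. All these fits pool the spread over the 15 libraries of both ages. Fitted to the 7 libraries of 35 d alone, edgeR called 5030 genes, 2456 higher and 2574 lower. Log2 fold changes throughout are SRN39 minus SQR, so that a value of 1 means a level 2-fold higher in SRN39. The median absolute log2 fold change of the called genes was 1.15, and over all tested genes the median log2 fold change was -0.06. Past a log2 fold change of 4 in size there were 260 genes higher and 188 lower in SRN39. The libraries of the genotypes did not overlap for 6555 tested genes (37%), among them 5482 of the called ones. Of the called genes, 4078 stayed called with the same sign when each of the 7 libraries was left out in turn. In a bulk root sample, fewer cells of a type and less RNA per cell cannot be told apart.

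The SQR libraries were less alike than the SRN39 libraries. Total counts at 35 d ran from 9618156 to 12969141. Correlations of log2 CPM between SRN39 libraries lay between 0.967 and 0.980, while SQR replicate 2 reached only 0.912 and 0.939 with the other SQR libraries, which correlated at 0.956 with each other. Its 10 most counted genes took 8.37% of its counts, against at least 14.6% in SQR replicates 1 and 3 and 10.9% to 12.5% in SRN39. In it 556 genes lay more than 4-fold from the mean of the other SQR libraries, 178 above and 378 below. The mean variance of log2 CPM at 28 d was 0.201 in SQR and 0.181 in SRN39. At 35 d it was 0.372 in SQR and 0.148 in SRN39, and 0.259 in SQR without replicate 2. Without that library 6246 genes were called, 5264 of them called with the same sign in the full comparison. The root label could not be checked against marker genes, since the annotation used here holds no list of them.

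**Figure D1:**
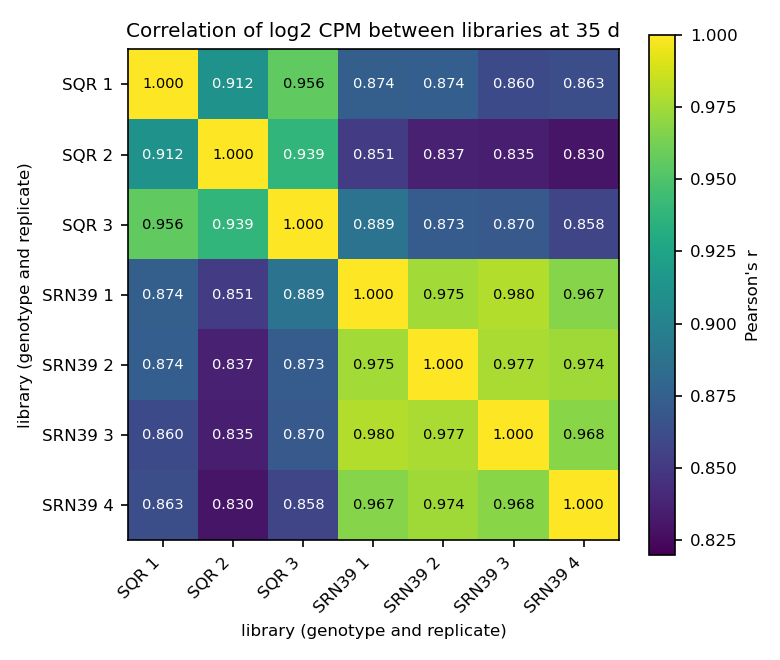
Pearson's r of log2 CPM (prior count 2) over the 17701 tested genes for each pair of the 7 libraries of 35 d, with libraries on both axes and colour for r. The 4 SRN39 libraries form a block at 0.967 or above, and SQR 2 is the library farthest from the SRN39 libraries, at 0.830 to 0.851.

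The strigolactone genes were measured first, since LGS1 is the gene deleted in SRN39 and checks the labels. LGS1 (Sobic.005G213600) was at 39.7, 19.5 and 18.8 CPM in the SQR libraries and at 1.52, 1.43, 0.879 and 1.61 CPM in those of SRN39 (log2 fold change -4.25 ± 0.38 (SE), adjusted p = 2.4e-07). The low but nonzero level in SRN39 held in all 4 libraries, and no SRN39 library came near an SQR one. CCD8 (Sobic.003G293600), the carotenoid cleavage dioxygenase that makes the strigolactone precursor carlactone, was at 7.28, 3.5 and 4.43 CPM in SQR and 20.1, 28.4, 17.9 and 35.9 CPM in SRN39 (log2 fold change 2.33 ± 0.42 (SE), adjusted p = 0.00041). CCD7 (Sobic.006G170300), the enzyme of the step before it, stood at 0.767, 2.57 and 0.484 CPM in SQR and 0.913, 1.83, 0.879 and 2.42 CPM in SRN39, did not pass the test (log2 fold change 0.26 ± 0.60 (SE), adjusted p = 0.77) and was at 1.27 without SQR replicate 2, still not called.

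Both NSP1 genes were higher in SRN39. In Medicago and rice NSP1 is a GRAS transcription factor needed for the expression of strigolactone synthesis genes. Sobic.001G341400 was at 12.3, 5.06 and 6.04 CPM in SQR and 49.8, 68.7, 42.1 and 59.5 CPM in SRN39 (log2 fold change 2.82 ± 0.32 (SE), adjusted p = 3.6e-06). Sobic.002G372100 was at 30.9, 12 and 15.6 CPM in SQR and 44.3, 53.5, 38.8 and 51.3 CPM in SRN39 (log2 fold change 1.27 ± 0.27 (SE), adjusted p = 0.0016). The groups did not overlap for either gene, and in both the SQR replicate nearest to SRN39 was replicate 1. LBO (Sobic.003G418000), which in Arabidopsis oxidizes a carlactone derivative, rose by less (log2 fold change 0.70 ± 0.23 (SE), adjusted p = 0.022), with SRN39 replicate 4 at 9.33 CPM inside the SQR range of 7.74 to 11.0 CPM. Its call was lost in the fit of the 7 libraries alone, after thinning (drawing reads from each library down to the smallest total), and without SQR replicate 3 or SRN39 replicate 1. SMXL3 (Sobic.008G042800), of a family whose members repress strigolactone and related signalling in Arabidopsis, fell from 1.69, 1.32 and 2.74 CPM in SQR to 0.812, 0.477, 0.732 and 0.336 CPM in SRN39 (log2 fold change -1.71 ± 0.46 (SE), adjusted p = 0.0075), a call lost after thinning. In all, 4 of the 7 strigolactone genes rose and 2 fell (85.7% called, against 36.4% of all tested genes). Their median log2 fold change was 0.70. They were chosen with results of these data known, and most had been reported to differ between these varieties before, so the count is no independent evidence of a direction.

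**Figure D2:**
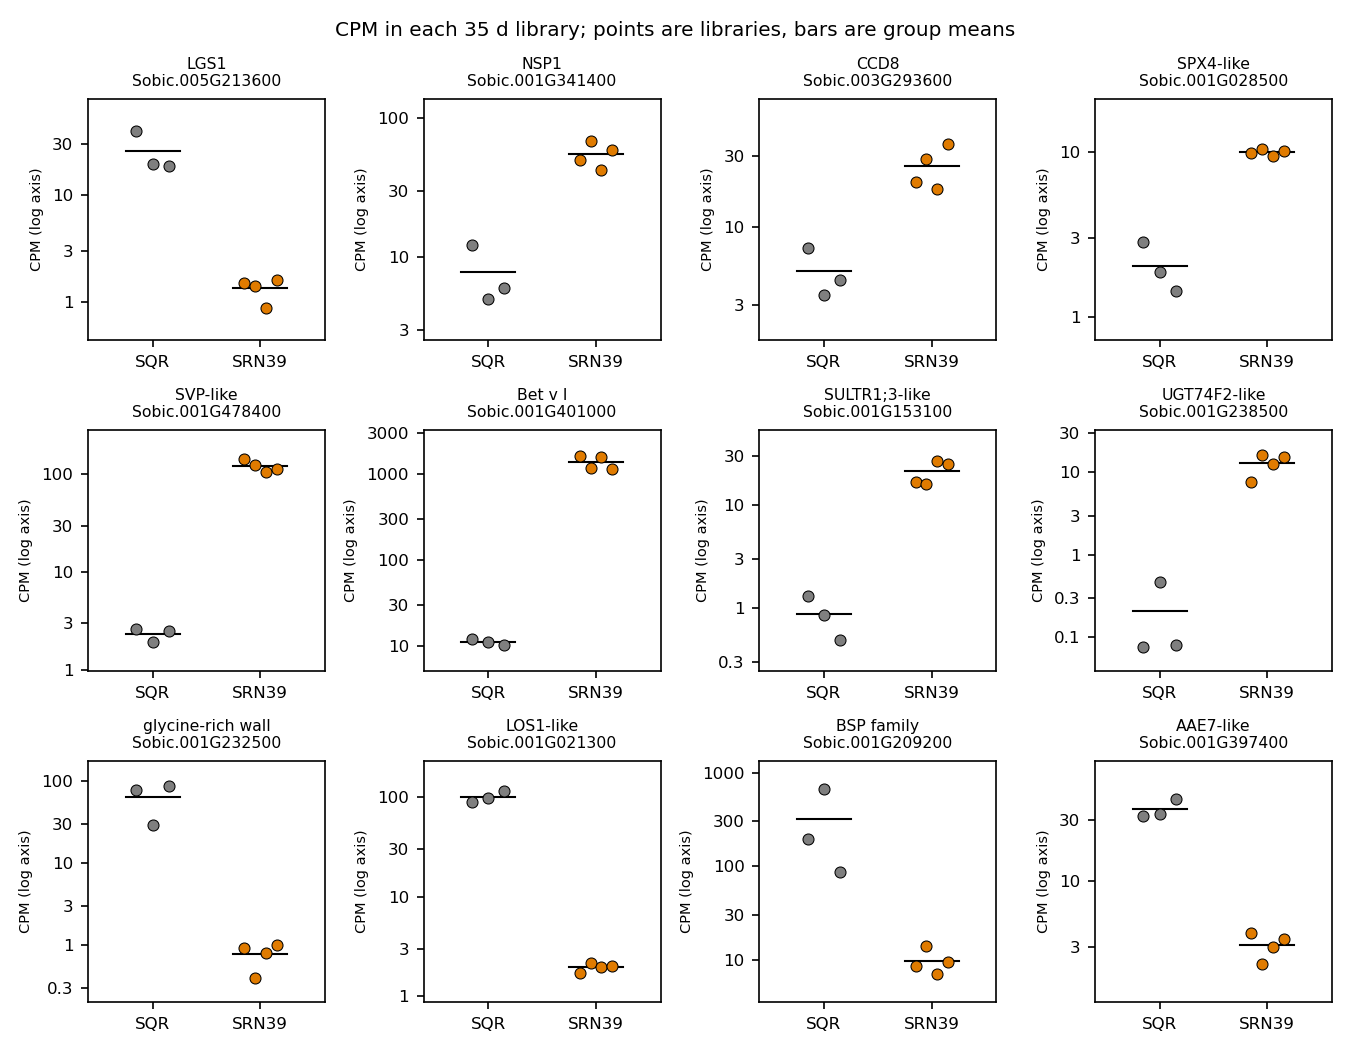
CPM in each 35 d library (log axis) for 12 genes, with grey points for the 3 SQR libraries, orange points for the 4 SRN39 libraries and bars at the group means. The groups do not overlap in any panel, and SQR 2 is the highest point for the basic secretory protein gene at 665 CPM.

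Gene names beyond the 14 genes named in the study's text or in its plot of strigolactone pathway genes come from best matches in Arabidopsis or rice. They were read from the part of the study's table of genotype-dependent genes used here, which holds 413 genes, 402 on chromosome 1 and 11 on chromosome 2. That table was made from these libraries, and 382 of its 399 tested genes were also called at 28 d in the present fit. Of the 399, 150 (37.6%) were higher and 111 (27.8%) lower in SRN39 at 35 d, in all 65.4% against 36.4% of all tested genes. The table was chosen on differences between these genotypes, so nothing is read from that share. The counts for the gene lists below share that choice and stand beside the shares of the 399, and a list holds only those members of a family that are in this part of the table. The median log2 fold change of the 399 genes was 0.28, against -0.06 over all tested genes.

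Of 6 genes tied to the phosphate response, 5 rose in SRN39 and none fell, with a list median of 0.81. That is 83.3% called, against 65.4% of all annotated genes. When phosphate is short, the transcription factor PHR1 in Arabidopsis switches on the response and proteins with an SPX domain hold it back, while purple acid phosphatases release phosphate from organic sources. The SPX4-like Sobic.001G028500 was at 2.84, 1.87 and 1.45 CPM in SQR and 9.85, 10.4, 9.45 and 10.1 CPM in SRN39 (log2 fold change 2.27 ± 0.25 (SE), adjusted p = 3.5e-06). All 4 SRN39 libraries lay within 1 CPM of each other and far above SQR. Sobic.001G171900, nearest in rice to a glycerophosphodiester phosphodiesterase, which splits products of phospholipid breakdown, was at 2.68, 3.11 and 2.5 CPM and 6.9, 7.55, 10.9 and 6.24 CPM (log2 fold change 1.51 ± 0.27 (SE), adjusted p = 0.00041). The PHR1-like Sobic.001G384300 rose by 0.68 ± 0.23, the PAP3-like Sobic.001G442300 by 0.94 ± 0.24 and the phosphatase Sobic.002G008500 by 0.56 ± 0.14, all without overlap. The call of the PHR1-like gene was lost with the replicate number as a block, after thinning to the smallest library total, and without SQR replicate 1 or SRN39 replicate 3. The PAP15-like Sobic.001G013800 was at -0.07 (adjusted p = 0.86).

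Each of the 5 peroxidase genes was called higher in SRN39 (against 65.4% called of all annotated genes), with a median log2 fold change of 1.36. Secreted plant peroxidases use hydrogen peroxide to crosslink wall phenolics. Sobic.001G360500 was at 416, 115 and 381 CPM in SQR and 898, 707, 797 and 715 CPM in SRN39 (log2 fold change 1.36 ± 0.31 (SE), adjusted p = 0.0023). Sobic.001G080300 was at 172, 57.1 and 100.3 CPM and 263, 315, 267 and 319.8 CPM (log2 fold change 1.41 ± 0.27 (SE), adjusted p = 0.00076). SQR replicate 2 was the lowest library for both, and the groups remained apart with the other SQR libraries alone, which reached 416 and 172 CPM against at least 707 and 263 CPM in SRN39. The other 3 lay between 0.47 and 1.95, and the call of each was lost under some alternatives, for Sobic.001G293000 without SQR replicate 1 or 3 or SRN39 replicate 3, for Sobic.001G379400 under 9 of them, and for Sobic.002G010600 after thinning and without SQR replicate 2.

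Cell wall genes moved in both directions. Of 20 tested, 4 rose and 7 fell (55% called, against 65.4% of all annotated genes), and the median log2 fold change was -0.48. A pair of glycine-rich wall protein genes that lie close together on chromosome 1 fell: Sobic.001G232500 from 76.8, 28.6 and 87.6 CPM in SQR to 0.913, 0.397, 0.806 and 1.01 CPM in SRN39 (log2 fold change -6.34 ± 0.40 (SE), adjusted p = 4.6e-09), and Sobic.001G232200 from 65.1, 37.3 and 64.6 CPM to 8.02, 5.24, 6 and 3.89 CPM (log2 fold change -3.27 ± 0.33 (SE), adjusted p = 1.2e-06). SQR replicate 2 was the lowest SQR library for both and still lay above every SRN39 library. The XTH9-like Sobic.001G179400, of the enzymes that cut and rejoin xyloglucan, fell from 7.05, 6.77 and 17.2 CPM to 1.32, 0.715, 1.32 and 0.806 CPM (log2 fold change -3.31 ± 0.35 (SE), adjusted p = 1.7e-06). The endoglucanase-like Sobic.001G384600 fell by 1.998 on the log2 scale and the beta-glucosidase Sobic.001G123201 by 1.85. Against these, the extensin-family gene Sobic.001G308600 was at 3.83, 0.623 and 1.13 CPM in SQR and 50.6, 41.5, 90.7 and 30.2 CPM in SRN39 (log2 fold change 4.82 ± 0.55 (SE), adjusted p = 4.3e-06), with a value of 5.91 without SQR replicate 1. The pectin methylesterase inhibitor Sobic.001G198800 was higher by 0.96 ± 0.29, a call that was lost without SQR replicate 1 or 2. Expansins, which loosen walls, split: the expansin B2-like Sobic.001G300700 rose by 0.87 ± 0.25, with overlapping libraries and a call lost without SQR replicate 1, and Sobic.001G542200 fell by 1.11, while a further B2-like gene, Sobic.001G542100, was at -0.25 (adjusted p = 0.52).

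Of 14 enzymes of lipid metabolism, 8 rose in SRN39 and 1 fell, with a median of 0.62. The share called was 64.3%, near the 65.4% of all annotated genes. The stearoyl-ACP desaturase Sobic.001G280700, of the enzymes that put the first double bond into plastid fatty acids, was at 27.4, 17.2 and 33.2 CPM in SQR and 97.8, 79.7, 130.4 and 80.6 CPM in SRN39 (log2 fold change 1.90 ± 0.24 (SE), adjusted p = 1.3e-05). The long-chain fatty alcohol dehydrogenase Sobic.001G221400 was at 4.68, 2.26 and 8.7 CPM and 21, 20.4, 20.1 and 10.3 CPM (log2 fold change 1.78 ± 0.35 (SE), adjusted p = 0.00085). Its neighbour FAO3-like Sobic.001G221200 rose by 1.14 ± 0.36. KAS2-like Sobic.001G344400 and the very-long-chain elongase CER6-like Sobic.001G453200 rose by 0.63 ± 0.18 and 0.58 ± 0.20. Of the oxylipin genes, the lipoxygenases LOX1-like Sobic.001G125700 (2.14 ± 0.44) and LOX5-like Sobic.001G125900 (0.60 ± 0.18) were higher, and allene oxide synthase Sobic.001G449700, the first dedicated enzyme of jasmonate synthesis, was at -0.45 (adjusted p = 0.075). Without SQR replicate 1 the calls of FAO3-like, KAS2-like, CER6-like and LOX5-like were lost (that of CER6-like also in several other settings), and that of allene oxide synthase was gained without SQR replicate 2. The only fall was AAE7-like Sobic.001G397400, which in Arabidopsis makes acetyl-CoA in peroxisomes, from 32.3, 33.1 and 43.2 CPM to 3.86, 2.22, 3 and 3.49 CPM (log2 fold change -3.53 ± 0.27 (SE), adjusted p = 4.8e-08). Of 4 lipid-transfer protein genes, Sobic.001G128500 (1.58 ± 0.22) and Sobic.001G387700 (2.35 ± 0.40) rose and Sobic.001G473200 (-1.87 ± 0.27) fell, with a median of 1.02. That is 75% called, against 65.4% of all annotated genes.

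**Figure D3:**
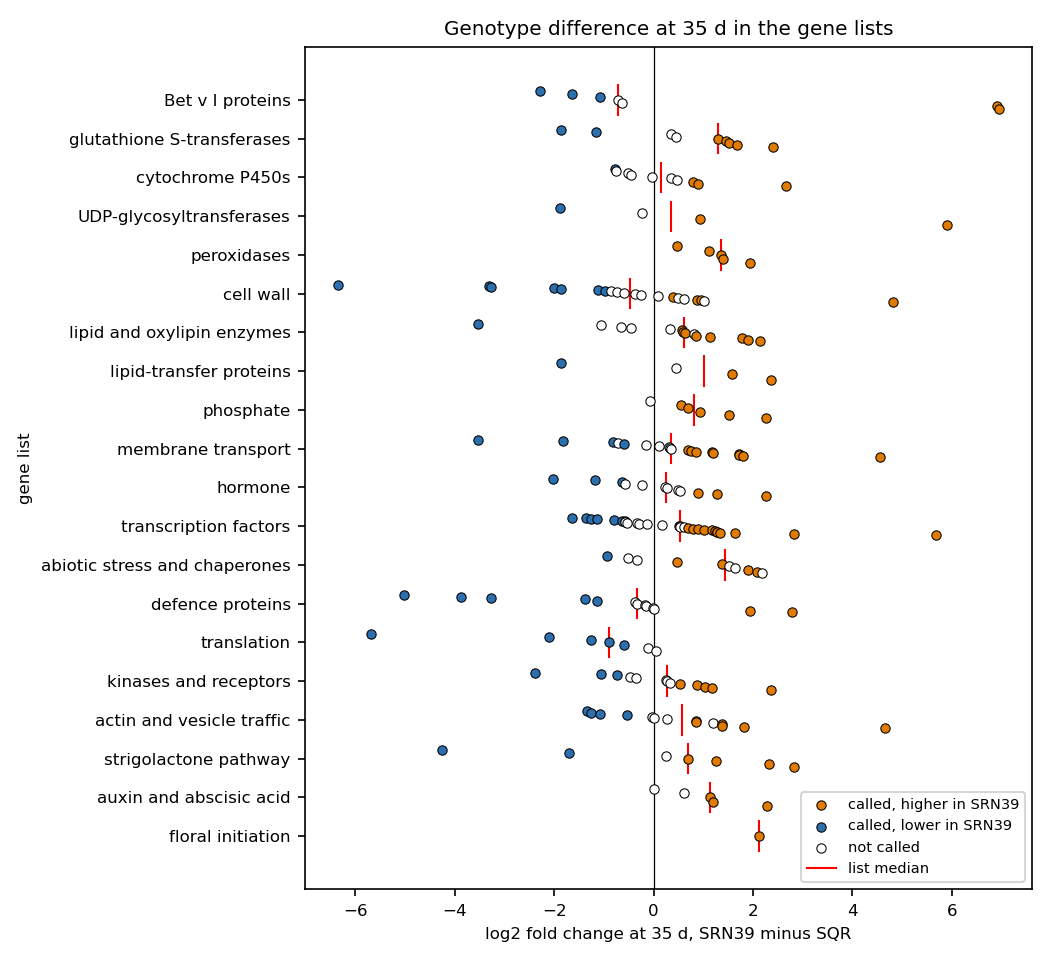
Log2 fold change at 35 d (x axis, SRN39 minus SQR) of each tested gene in the 20 lists (y axis), coloured by call, with a red line at each list's median. The peroxidase points all lie to the right of 0 and the called translation points to the left, and most other lists have called genes on both sides.

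Of 19 transport genes, 9 rose and 4 fell, with a median of 0.35. The share called was 68.4%, near the 65.4% of all annotated genes. The SULTR1;3-like sulfate transporter Sobic.001G153100 was at 1.3, 0.856 and 0.484 CPM in SQR and 16.5, 16.1, 26.7 and 25.2 CPM in SRN39 (log2 fold change 4.56 ± 0.41 (SE), adjusted p = 2.8e-07). The amino acid transporter Sobic.001G157200, like Arabidopsis CAT1, was at 62.5, 56 and 57.8 CPM and 129.7, 136, 127 and 145 CPM (log2 fold change 1.20 ± 0.19 (SE), adjusted p = 0.00015). The spread within each genotype was small for it beside the difference. NIP5;1-like Sobic.001G195800, a boric acid channel in Arabidopsis roots, rose from 243, 220.1 and 259 CPM to 811, 806, 1009 and 532 CPM (log2 fold change 1.71 ± 0.28 (SE), adjusted p = 0.00016). A MATE efflux gene, Sobic.001G185400, rose by 1.71 ± 0.32. On the other side, beta-TIP-like Sobic.001G208500, a water channel of the vacuole, fell from 2.61, 2.1 and 5.24 CPM to 0.304, 0.318, 0.293 and 0.201 CPM (log2 fold change -3.53 ± 0.63 (SE), adjusted p = 0.00035). The ABC transporter Sobic.001G190900, like Arabidopsis ABCG37, fell by 1.83 on the log2 scale.

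Detoxification families did not move as one. Of 9 glutathione S-transferases, 5 rose and 2 fell (77.8% called, against 65.4% of all annotated genes), with a median of 1.29. The rises were all tau-class genes on chromosome 1, led by Sobic.001G319300 at 19.1, 23.9 and 29.3 CPM in SQR and 98.7, 173, 155 and 82.9 CPM in SRN39 (log2 fold change 2.40 ± 0.30 (SE), adjusted p = 1.2e-05). The phi-class F11-like Sobic.001G310300 fell from 17.2, 23.7 and 21.2 CPM to 7.31, 4.93, 5.93 and 4.57 CPM (log2 fold change -1.87 ± 0.20 (SE), adjusted p = 2.2e-06). Several tau-class genes are close neighbours with the same best match in Arabidopsis. How reads that fit more than 1 such copy were counted, or whether they were dropped, was not checked.

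Of 10 cytochrome P450s, 3 rose and 1 fell (40% called, against 65.4% of all annotated genes), with a median of 0.16. The fall, Sobic.001G018300 (-0.78 ± 0.22), lost its call without SQR replicate 2. Sobic.001G176300, of the CYP71B group, was at 4.45, 2.65 and 2.5 CPM in SQR and 15.2, 18.7, 17.3 and 30.1 CPM in SRN39 (log2 fold change 2.67 ± 0.33 (SE), adjusted p = 1.2e-05). CYP714A1-like Sobic.001G383400, which in Arabidopsis inactivates gibberellins, rose by 0.89 ± 0.25 (adjusted p = 0.01), a call lost without SQR replicate 3. Of 4 UDP-glycosyltransferases, the UGT74F2-like Sobic.001G238500, which in Arabidopsis adds glucose to salicylic acid, was at 0.0767, 0.467 and 0.0806 CPM in SQR and 7.71, 16.4, 12.7 and 15.3 CPM in SRN39 (log2 fold change 5.90 ± 0.46 (SE), adjusted p = 4.3e-08), and 7.19 without SQR replicate 2. Sobic.001G084400 of the same family fell by 1.89, and Sobic.001G044400 rose by 0.94 ± 0.36, a call lost under 8 alternatives, the fits without SQR replicate 2 and without any 1 of the SRN39 libraries among them.

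The Bet v I genes, whose best Arabidopsis matches are abscisic acid receptors of the PYL type, differed in opposite directions. Of 7 members, 2 rose and 3 fell (71.4% called, against 65.4% of all annotated genes), with a median of -0.71. Sobic.001G401000 was at 12.3, 11.1 and 10.2 CPM in SQR and 1632, 1170.2, 1600.1 and 1146 CPM in SRN39 (log2 fold change 6.95 ± 0.38 (SE), adjusted p = 9.5e-10). Sobic.001G400900, next to it, was at 0.613, 0.856 and 0.564 CPM and 93.3, 85.6, 108 and 44.9 CPM (log2 fold change 6.91 ± 0.39 (SE), adjusted p = 1.3e-09). Their neighbour Sobic.001G400700 fell from 312, 342 and 532 CPM to 100.2, 81.5, 94.5 and 47.9 CPM (log2 fold change -2.29 ± 0.34 (SE), adjusted p = 7.3e-05), and Sobic.001G400800 fell by 1.65, a call lost without SQR replicate 3, where the value was -0.90. Sobic.001G401300 was also called lower (-1.08 ± 0.37), but with overlapping libraries and a call lost under several alternatives, limma-voom and the fit of the 7 libraries among them. How reads that fit more than 1 of these neighbours were counted, or whether they were dropped, was not checked.

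Among the transcription factors, 12 rose and 7 fell of 29 (65.5% called, near the 65.4% of all annotated genes), with a median of 0.53. The SVP-like MADS-box gene Sobic.001G478400, whose Arabidopsis counterpart represses flowering, was at 2.61, 1.95 and 2.5 CPM in SQR and 142, 125, 106 and 113 CPM in SRN39 (log2 fold change 5.69 ± 0.23 (SE), adjusted p = 4.7e-11). SOC1-like Sobic.001G526800, which promotes flowering in Arabidopsis, was at 8.13, 16.9 and 13.2 CPM and 3.76, 5.88, 4.17 and 7.32 CPM (log2 fold change -1.26 ± 0.28 (SE), adjusted p = 0.0019). The spread of SQR for SOC1-like was wide, 8.13 to 16.9 CPM, and still lay above the highest SRN39 library. The HRE1-like ERF Sobic.001G481400, tied to low oxygen in Arabidopsis, rose by 1.28 ± 0.26, NF-YA6-like Sobic.001G154500 by 1.25 ± 0.24 and GATA26-like Sobic.001G137300 by 1.17 ± 0.23. The ZAT10-like zinc finger Sobic.001G079500, a salt and drought response factor in Arabidopsis, fell by 1.13. Of the pair of floral transcription factors that the study names, Sobic.008G168400 had no count in any of the 7 libraries. The other, Sobic.010G180200, rose from 0.46, 0 and 0.161 CPM to 0.609, 1.11, 0.952 and 1.07 CPM (log2 fold change 2.13 ± 0.64 (SE), adjusted p = 0.016), at the low end of what was counted. It was at 3.41 without SQR replicate 1 and lost its call without SQR replicate 3. It passed the filter only through SRN39 libraries, which favoured a rise, so nothing is read from its direction.

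Hormone genes split evenly, 3 up and 3 down of 12 (50% called, against 65.4% of all annotated genes), with a median of 0.25. The oxygenase Sobic.001G006201, nearest in rice to the enzyme that makes ethylene, was at 4.68, 4.51 and 4.59 CPM in SQR and 22.2, 19.1, 22.9 and 23.9 CPM in SRN39 (log2 fold change 2.26 ± 0.23 (SE), adjusted p = 1.3e-06). The dormancy and auxin associated gene Sobic.001G377000 fell from 499.7, 337 and 659 CPM to 141, 106, 84.9 and 158 CPM (log2 fold change -2.03 ± 0.31 (SE), adjusted p = 8.4e-05). A GH3 gene, Sobic.001G331200, of the family that joins auxin to amino acids, fell from 66.4, 41.6 and 57.8 CPM to 30.2, 23.8, 20.4 and 22.9 CPM (log2 fold change -1.19 ± 0.23 (SE), adjusted p = 0.00069). None of these groups overlapped.

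Of the SAUR genes, which respond quickly to auxin, Sobic.002G259100 was at 278, 197 and 213 CPM in SQR and 466, 609, 509 and 533 CPM in SRN39 (log2 fold change 1.21 ± 0.22 (SE), adjusted p = 0.00046). Sobic.004G156300 was at 151, 75.1 and 81.4 CPM and 166, 253, 212 and 265 CPM (log2 fold change 1.13 ± 0.25 (SE), adjusted p = 0.0022), with SQR replicate 1 close under the lowest SRN39 library. Sobic.007G191400 did not pass the test (log2 fold change 0.01 ± 0.19 (SE), adjusted p = 0.98). HAI3 in Arabidopsis is a phosphatase that dampens abscisic acid signalling. The HAI3-like Sobic.002G172000 was at 2.3, 1.48 and 1.13 CPM in SQR and 6.5, 8.18, 6.3 and 10.9 CPM in SRN39 (log2 fold change 2.28 ± 0.36 (SE), adjusted p = 0.00014). The other, Sobic.003G354000, was at 5.75, 4.98 and 6.53 CPM and 9.44, 9.85, 7.25 and 8.86 CPM and did not pass the test (log2 fold change 0.62 ± 0.27 (SE), adjusted p = 0.087), though limma-voom called it. The groups did not overlap for either. Of these 5 auxin and abscisic acid genes 3 rose and none fell (60% called, against 36.4% of all tested genes). Their median was 1.13. They were named in the paper from these same libraries, so the count is no independent evidence.

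Of 13 defence genes, 2 rose and 5 fell, with a median of -0.34. The share called was 53.8%, against 65.4% of all annotated genes. The basic secretory protein gene Sobic.001G209200 was at 194, 665 and 86.6 CPM in SQR and 8.63, 14.1, 6.96 and 9.4 CPM in SRN39 (log2 fold change -5.01 ± 0.59 (SE), adjusted p = 6.3e-06). SQR replicate 2 was the highest library, and without it the value was -3.85, each SQR library being above each SRN39 one. The proteinase inhibitor Sobic.001G100700 fell from 1.99, 5.99 and 4.76 CPM to 0.406, 0.318, 0.22 and 0.201 CPM (log2 fold change -3.88 ± 0.52 (SE), adjusted p = 2.3e-05), and CMPG1-like Sobic.001G441100, a ubiquitin ligase induced by elicitors, from 4.91, 20 and 5.56 CPM to 0.609, 1.19, 1.03 and 1.28 CPM (log2 fold change -3.27 ± 0.48 (SE), adjusted p = 6.1e-05), with -2.32 for the latter without SQR replicate 2. A chitinase, Sobic.001G247900, and a defensin-like gene, Sobic.001G194000, fell by 1.38 and 1.14, the former with a call lost after thinning. In the other direction the PR1-related Sobic.001G333400, of a secreted protein family, was at 135, 83.9 and 146 CPM and 339, 581, 570.1 and 386 CPM (log2 fold change 1.95 ± 0.27 (SE), adjusted p = 3.7e-05), and the dirigent-like Sobic.002G005100 rose by 2.78 ± 0.42.

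No translation gene rose. Of 7, 5 fell (71.4% called, against 65.4% of all annotated genes), with a median of -0.89. LOS1-like Sobic.001G021300, an elongation factor in Arabidopsis, was at 90.2, 97.5 and 116 CPM in SQR and 1.73, 2.14, 1.98 and 2.01 CPM in SRN39 (log2 fold change -5.67 ± 0.24 (SE), adjusted p = 4.7e-11). The ribosomal protein gene Sobic.001G467300 (S3a) was at 399, 182 and 236 CPM and 57.8, 64.3, 58.6 and 71.1 CPM (log2 fold change -2.11 ± 0.36 (SE), adjusted p = 0.00023). The S7-like Sobic.001G403500, eIF3k-like Sobic.001G481700 and eIF(iso)4E-like Sobic.001G224400 fell by 0.89, 1.26 and 0.59, and none of the 5 had overlapping libraries.

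Kinases and receptors split 5 up and 3 down of 13 (61.5% called, against 65.4% of all annotated genes), with a median of 0.27. The kinase Sobic.001G446000 was at 3.22, 3.03 and 4.92 CPM in SQR and 25.3, 17.2, 24.2 and 10.7 CPM in SRN39 (log2 fold change 2.37 ± 0.29 (SE), adjusted p = 7.8e-06), and Sobic.001G240800 rose by 1.03 ± 0.21. Both LysM-domain genes, of a family that binds chitin-like sugars, fell: Sobic.001G320400 by 2.38 and Sobic.001G126100 by 1.06. GPA1-like Sobic.001G484200, the G protein alpha subunit, rose by 0.88 ± 0.20.

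Of 14 genes of actin and vesicle traffic, 6 rose and 4 fell, with a median of 0.56. That is 71.4% called, against 65.4% of all annotated genes. The dynamin-related DRP4C-like Sobic.001G430500 was at 0.537, 0.233 and 0.403 CPM in SQR and 14.1, 12.1, 7.84 and 6.71 CPM in SRN39 (log2 fold change 4.66 ± 0.42 (SE), adjusted p = 3.1e-07). The small GTPases RABA2A-like Sobic.001G017400 and ARA7-like Sobic.001G143300, which mark trans-Golgi and endosomal membranes in Arabidopsis, both rose by 1.38. ARPC4-like Sobic.001G013200, a subunit of the complex that branches actin filaments, fell by 1.33 and the multivesicular body gene Sobic.001G118900 by 1.08.

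DnaJ-type chaperones moved apart. Sobic.001G032700 was at 0.843, 1.17 and 1.45 CPM in SQR and 4.97, 4.53, 4.91 and 5.24 CPM in SRN39 (log2 fold change 2.08 ± 0.27 (SE), adjusted p = 2e-05), and Sobic.001G400300 rose by 1.37 ± 0.23. The cysteine-rich DnaJ gene Sobic.001G148500 fell by 0.93. In the whole list of abiotic stress and chaperone genes 4 rose and 1 fell of 10 tested, with a median of 1.45. That is 50% called, against 65.4% of all annotated genes.

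The largest differences at 35 d with an annotation were not in these lists alone. The Deg-like protease gene Sobic.001G100900 was at 148, 108 and 86.1 CPM in SQR and 1.42, 1.75, 0.732 and 1.95 CPM in SRN39 (log2 fold change -6.27 ± 0.41 (SE), adjusted p = 7e-09). The U5 snRNP helicase-like Sobic.001G028200, a spliceosome component, was at 6.9, 12.3 and 11.5 CPM and 0.304, 0.238, 0.146 and 0.336 CPM (log2 fold change -5.27 ± 0.37 (SE), adjusted p = 1.6e-08). The alpha/beta hydrolase Sobic.001G484000 was at 18.7, 24 and 24 CPM and 1.62, 2.14, 1.98 and 1.95 CPM (log2 fold change -3.52 ± 0.26 (SE), adjusted p = 2.9e-08). For all 3 genes the libraries of each genotype were close together beside the gap between them. The ubiquitin protease UBP2-like Sobic.001G186600 was at 0.23, 0.233 and 0.161 CPM in SQR and 11.3, 10.8, 12.3 and 13.3 CPM in SRN39 (log2 fold change 5.76 ± 0.25 (SE), adjusted p = 4.9e-11), and the DUF607 gene Sobic.001G203200 rose from 82.9, 97.8 and 123 CPM to 740.2, 705, 782 and 586 CPM (log2 fold change 2.80 ± 0.28 (SE), adjusted p = 8.7e-07).

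Next come called genes without overlap and with a mean of at least 10 CPM in the higher group. Within these limits the 2 largest rises and 2 largest falls carry no annotation here, and some rest on 1 library. Over all tested genes, without these limits, the largest log2 fold change was 9.54. Sobic.003G187800 had 1 read in the 3 SQR libraries together and 534 in those of SRN39, a ratio of 401 after scaling (95% exact interval 71.7 to 15874, counting error only), with every SRN39 library at 4.16 CPM or more. Its single read was in SQR replicate 3, and without that library it was at least 90.4-fold higher in SRN39, with 3 reads over the SQR group as the floor. Sobic.008G181801 had 1 read in SQR and 808 in SRN39, of which 760 were in replicate 4. Its ratio was 607 (95% exact interval 109 to 24004) and 50.9 without SRN39 replicate 4 (8.72 to 2053), and its call was lost with limma-voom and DESeq2. Without SQR replicate 2, which held the read in SQR, it was at least 134-fold higher in SRN39 by the same floor. Sobic.004G283201 had 1020 reads in SQR, 759 of them in replicate 2, and 1 in SRN39, a ratio of 1358 (95% exact interval 243 to 53682) and of 523 without SQR replicate 2 (93.0 to 20730). Without SRN39 replicate 3, which held the single read, it was at least 331-fold lower in SRN39 by the same floor. Sobic.002G269100 had 1870 reads in SQR, 1819 of them in replicate 2, and none in SRN39. Taking 3 reads over the SRN39 group as the floor, it was at least 830-fold lower, but at least 34.1-fold lower without SQR replicate 2, and its call was lost with DESeq2. The values without a library were computed after the counts had been seen.

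Genes read in 1 genotype only were defined as those with a mean of at least 10 CPM in 1 genotype and at most 1 CPM in every library of the other. At 35 d 47 genes were read in SRN39 and 28 in SQR. The 28 d libraries, which the limits did not use, held the same direction without overlap for 46 of the 47 and for 18 of the 28, where 11.4% of all tested genes were higher and 10.9% lower in SRN39 without overlap at 28 d. They met the same limits for 25 of the 47 and 5 of the 28. The median level of the 47 was 17.9 CPM in SRN39 and 0.238 CPM in SQR. For the 28 the medians stood at 19.5 CPM in SQR and at 0.338 CPM in SRN39. At levels near 0, low expression and reads that fail to match BTx623, the line used for counting, cannot be told apart. This holds at both ages. Of the 28, 21 had their highest value in SQR replicate 2, and in 16 a single SQR library held more than 50% of the summed CPM. Without that replicate 15 of the 28 and all 47 met the limits. UGT74F2-like Sobic.001G238500, UBP2-like Sobic.001G186600, the Bet v I gene Sobic.001G400900 and DRP4C-like Sobic.001G430500 were among the 47, and the helicase gene Sobic.001G028200 was among the 28.

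**Figure D4:**
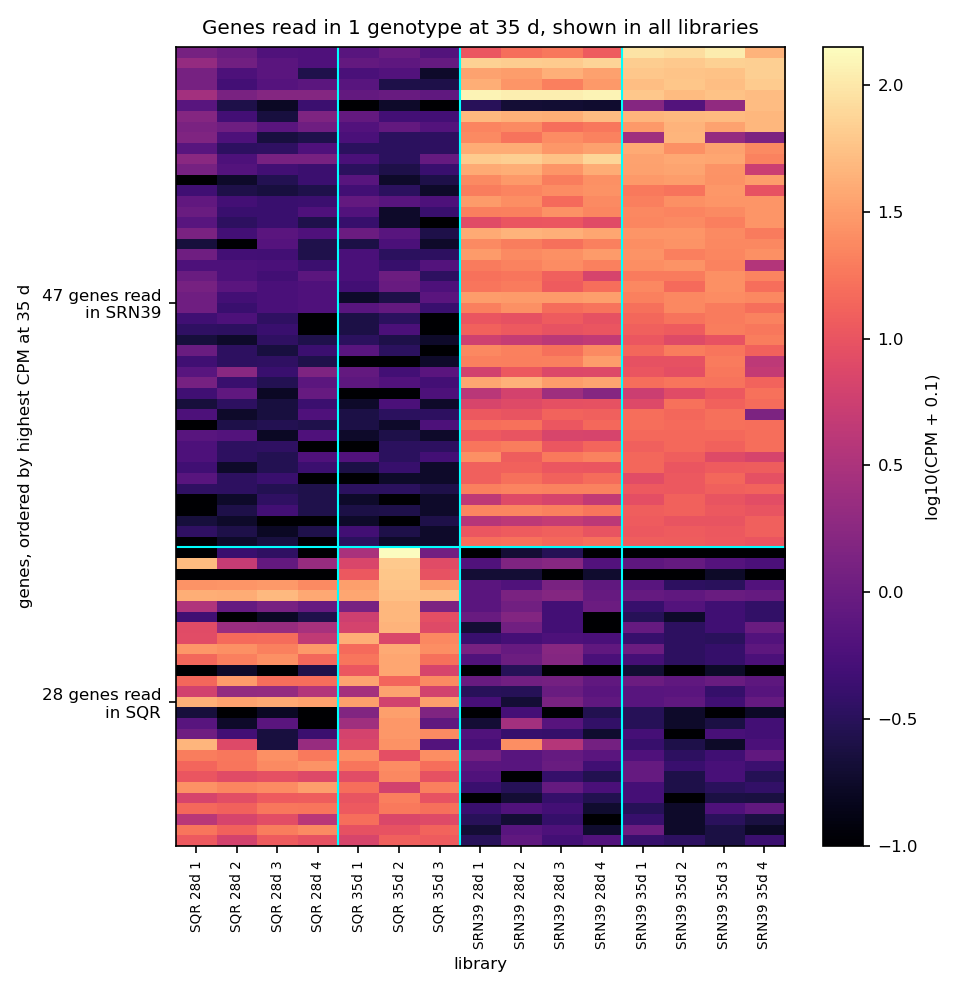
Log10(CPM + 0.1) of the 75 genes read in 1 genotype at 35 d (rows) in all 15 libraries (columns), with lines between genotypes, ages and sets. Most of the 47 genes read in SRN39 are also bright in its 28 d libraries, while several of the 28 genes read in SQR are brightest in the 35 d replicate 2 alone.

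The called genes were spread over the genome. By chromosome, 35.2% to 38.9% of tested genes were called on 9 of the 10 chromosomes and 41.9% on chromosome 5. Why chromosome 5 stood higher was not tested. On chromosome 5, 21.4% of tested genes were higher and 20.4% lower in SRN39, and on chromosome 9 13.0% were higher and 22.2% lower. There were 55 runs of at least 4 neighbouring tested genes called in 1 direction, 26 higher and 29 lower, holding 251 genes. With 16.5% of all tested genes higher and 19.9% lower, some such runs arise without any clustering. The number expected from these shares was not computed, so nothing is read from the count. The longest run held 9 genes on chromosome 8, from Sobic.008G158266 to Sobic.008G158900. Its median log2 fold change was 1.92 at 35 d and 1.995 at 28 d. The next, 8 genes on chromosome 1 from Sobic.001G231500 to Sobic.001G232500, ended with the glycine-rich wall proteins and had medians of -2.64 and -1.70.

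Whether the genotype difference at 35 d was that already present at 28 d was tested with the interaction, which is the difference at 35 d minus that at 28 d. At 28 d 3027 of the tested genes were called, and 1978 genes were called at both ages with the same sign and 72 with opposite signs. The interaction was called for 1358 genes (7.67%), 654 positive and 704 negative. Of the 399 annotated genes, 350 had the same sign at both ages and 51 an interaction. The table behind the annotation was chosen on these libraries, so its shares say nothing of other genes. The interaction was called for 878 genes without SRN39 replicate 3 and for 898 without SRN39 replicate 4. Without SQR replicate 1 it was called for 1977 genes and without SQR replicate 2 for 1618. With the replicate number as a block the count was 709.

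**Figure D5:**
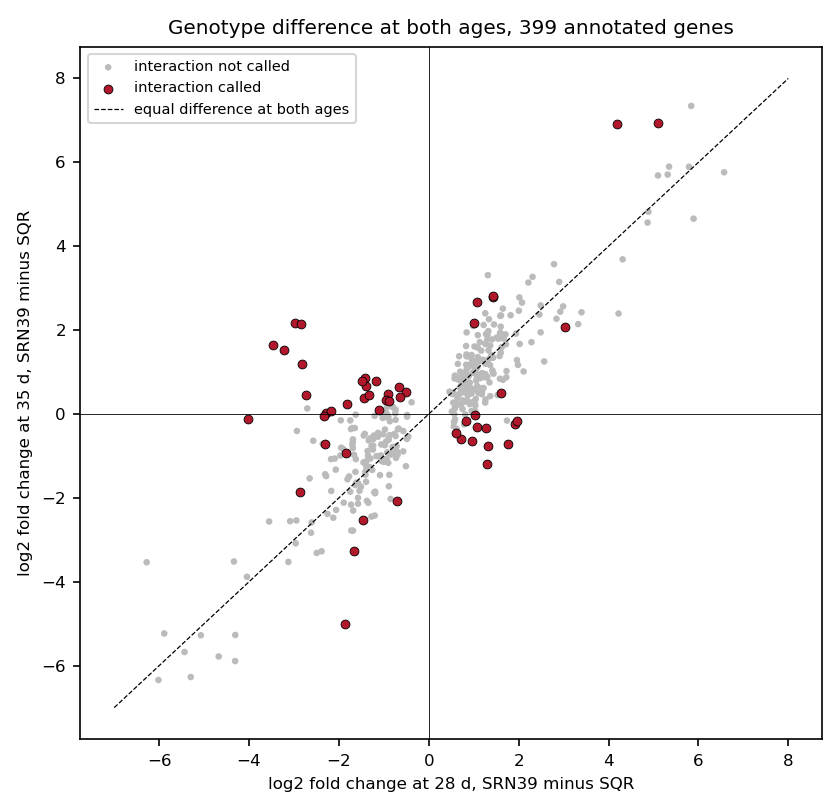
Log2 fold change between genotypes (SRN39 minus SQR) at 28 d (x axis) and at 35 d (y axis) for the 399 annotated genes, with genes called for the interaction in red and a dashed line of equal differences. Of the 399 points 350 have the same sign at both ages, and the red points in the upper left include the late embryogenesis and RD29B-like genes.

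Among the annotated genes with an interaction were several stress genes. They and the reversing genes below, apart from the GH3 gene, were chosen after their values were seen. The late embryogenesis abundant gene Sobic.001G492000, of proteins that guard drying cells, had 40.2 to 319.6 CPM in SQR at 28 d and 4.45 to 25.7 CPM in SRN39. At 35 d it was at 7.82, 5.37 and 2.74 CPM in SQR and 9.03, 27.2, 7.1 and 23.2 CPM in SRN39. The difference was -3.48 ± 0.67 at 28 d (adjusted p = 0.0012) and 1.65 ± 0.73 at 35 d (adjusted p = 0.087), with an interaction of 5.12 ± 1.00 (adjusted p = 0.007). RD29B-like Sobic.001G200700, an abscisic acid marker in Arabidopsis, had an interaction of 5.15 ± 1.14 (adjusted p = 0.013), the low temperature and salt responsive Sobic.001G409400 one of 4.75 ± 1.06 (adjusted p = 0.014), and the actin depolymerizing factor ADF3-like Sobic.001G034900 one of 4.03 ± 0.80 (adjusted p = 0.0078). None of the 4 passed the test at 35 d, though the fit of the 7 libraries called the late embryogenesis gene, and 5 alternatives called RD29B-like. In SRN39 at 35 d replicate 3 was the lowest library for all 4. For each of the 4, every SQR library of 35 d lay below every SQR library of 28 d, while the SRN39 ranges of the ages overlapped. In SQR, RD29B-like stood at 48.4 to 476 CPM at 28 d, highest in replicate 3, and at 3.63 to 6.90 CPM at 35 d. In SRN39 it stood at 4.66 to 54.8 and 4.39 to 35.5 CPM.

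Other genes reversed. The GH3 gene Sobic.001G331200 was higher in SRN39 at 28 d (1.30 ± 0.21, adjusted p = 0.00027) and lower at 35 d, with an interaction of -2.49 ± 0.31 (adjusted p = 0.00096). At 28 d its SRN39 libraries held 104 to 118 CPM and at 35 d 20.4 to 30.2 CPM, while SQR held 29.9 to 64.7 and 41.6 to 66.4 CPM. The TOE1-like AP2 gene Sobic.001G036800, a flowering repressor in Arabidopsis, changed in the same way (interaction -1.61 ± 0.29, adjusted p = 0.0053). ADF4-like Sobic.001G417600 went from -1.42 ± 0.23 to 0.85 ± 0.23 and the P450 Sobic.001G176600, like CYP71B7, from -1.18 ± 0.24 to 0.79 ± 0.26. The 35 d calls of TOE1-like and of this P450 were each lost under at least 4 alternatives. In all, 8 annotated genes were called at both ages with opposite signs. The basic secretory protein genes Sobic.001G209200 and Sobic.001G209300, which are neighbours, had interactions of -3.16 ± 0.73 and -2.14 ± 0.25 (adjusted p = 0.016 and 0.00061). The former was lost with the replicate block, and the latter came from a rise of 1.97 ± 0.18 at 28 d to -0.17 ± 0.18 at 35 d.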

How the data were processed

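From 3′ mRNA-Seq libraries the authors trimmed reads, mapped them to BTx623 with STAR, pooled technical replicates and deposited whole-number read counts per gene without normalization. The sources used here give neither the versions of STAR and the annotation nor the strand setting. The table has 1 further column, named as an SQR library of 35 d, that fits no sample's labels. It was left out.

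Counts were analysed in R 4.3.3. One edgeR 4.0.16 quasi-likelihood model of 4 groups was fitted to the 15 libraries after TMM scaling, with two-sided tests and Benjamini-Hochberg adjustment at 0.05. The 28 d libraries add to the estimate of spread. A standard error is the absolute log2 fold change over the root of F, and CPM use TMM-scaled totals. Limma 3.58.1 and DESeq2 1.42.0 served as alternatives, beside other scalings, filters, samples, a replicate block, thinning (seed 20210819) and leaving out each library. The fit was also run on simulated counts with known changes. There each gene had the same spread in all groups, unlike in these libraries. The run therefore says nothing of error rates under unequal spread.

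The members, gene lists and tests were chosen with earlier results of these data known. Named genes were the 14 in the study's text or its plot of strigolactone pathway genes, up to 2 per list and direction with the lowest adjusted p and no overlap, the 10 largest annotated rises and falls at 10 CPM or more, the 2 largest of all in each direction, and list members that complete a list. The largest rises and falls were taken among called genes without overlap and with a mean of at least 10 CPM in the higher group. The study's comparison columns were not used. No gene ID matched the RefSeq table, so planned RefSeq lists and sequences were not used here. Replicate numbers did not pair the libraries: same-numbered libraries correlated at -0.23 to 0.18 after group means were removed. Counting intervals cover counting error only.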

Additional observations from a re-analysis of the deposited data

Results flagged for a closer look

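Among 79 genes checked in the 4 SRN39 libraries of 35 d, 4 had 1 library far from the others by Dixon's test at the 95% level, where chance gives about 5% of genes. Sobic.001G118900 stood low at 4.37 CPM in replicate 2 and Sobic.001G221400 low at 10.3 CPM in replicate 4. Sobic.008G181801 stood high at 51.0 CPM in replicate 4, and Sobic.004G283201 had its only read, 0.0732 CPM, in replicate 3. With no read in the other SRN39 libraries, any single read passes this test, so that flag carries no weight. The count of 4 is near what chance gives, so nothing is read from it.

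The genotype difference at 35 d minus that at 28 d, on the log2 scale, passed the edgeR interaction test for 15 of the 79 tested genes of the naming rule, against 7.67% of all tested genes. The rule picks large differences at 35 d, so nothing is read from that count. The SAUR and HAI3-like genes were named in the paper from groups formed on these libraries by genotype and age. Their interactions were largely fixed by that choice and are no independent evidence. The interaction was 2.95 for HAI3-like Sobic.002G172000 (adjusted p = 0.0034), which was at -0.67 ± 0.33 at 28 d. For HAI3-like Sobic.003G354000 it was 1.61, from -0.99 ± 0.27 at 28 d, and for SAUR Sobic.002G259100 1.29, from -0.08 ± 0.20. The Bet v I genes Sobic.001G400900 and Sobic.001G401000 had 2.71 and 1.85, and the GH3 gene Sobic.001G331200 -2.49. These 6 were called under every alternative run for the interaction, none of which left out a single 28 d library.

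The others lost the call somewhere. The replicate block alone ended it for the DUF607 gene Sobic.001G203200 (1.38) and the basic secretory protein gene Sobic.001G209200 (-3.16). NSP1 Sobic.001G341400 (1.39) and SAUR Sobic.004G156300 (1.17) lost it under 6 alternatives each, the block and the fit without SQR replicate 2 among them. CYP71B-like Sobic.001G176300 (1.60), the wall protein gene Sobic.001G232200 (-1.61), GSTF11-like Sobic.001G310300 (1.00) and the DnaJ gene Sobic.001G148500 (0.90) lost it under 5 to 7. Sobic.004G283201 lost it without SRN39 replicate 3. Its fitted value of -12.73 rests on that single read and depends on the prior count.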

How the results depend on the processing

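Over 10 other tests, scalings, filters, sample choices and thresholds, 4044 to 6719 genes were called at 35 d. The lowest count was at an adjusted p under 0.01, and the fit of the 7 libraries alone called 5030, limma-voom 6685 (3395 higher and 3290 lower) and DESeq2 6717. Leaving out 1 library gave 5389 to 6340, and the replicate block 5389. The interaction was called for 709 genes with the block and for 878 to 1977 without 1 library. Genes read in 1 genotype numbered 111 in SRN39 and 90 in SQR at 5 CPM or more, 26 and 13 at 0.5 CPM or less, and 45 to 54 and 20 to 36 without 1 library. The mean variance was 0.444 in SQR and 0.187 in SRN39 at a prior count of 0.5, and 0.259 to 0.496 in SQR without 1 library (this last alternative was chosen after seeing the data). The 7-library fit held 35 runs. Of 79 named genes tested, 66 kept sign and call under every alternative. SAUR Sobic.007G191400, near 0, turned to -0.0236 without TMM and -0.10 after thinning, and ranged from -0.16 to 0.17 without 1 library. CCD7 Sobic.006G170300 ranged from -0.12 to 1.27 without 1 library. The cause was not tested. Genes of a few CPM were limited by depth. Some, SMXL3 and LOX1-like Sobic.001G125700 among them, passed the filter at 1 CPM only through the genotype where they were higher.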
